A study of Mus musculus with 4 samples.

Results

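Liver RNA of wild-type mice fed the synthetic PPARα agonist Wy14643 was compared with liver RNA of wild-type mice on normal food, gene by gene across a mouse expression array, and the comparison uses 2 of the 4 arrays of the study. Each array was hybridised with 1 pool of liver RNA. Wild-type mice were of strain 129S1/SvImJ and received 0.1% (w/w) Wy14643 in the food, or the food without it, for 5 days. The other 2 arrays hold the same treatments in PPARα-null mice, labelled 129S4/SvJae, in which Ppara is disrupted in the whole animal, so genotype and substrain cannot be told apart between the pairs. All mice were 12 to 20 weeks old and labelled male, and the design text gives 5 mice to a pool. With 1 array a side there is no measure of the spread between mice, so every value below is a description of these pools, without a test. One label of the treated wild-type sample carries the control's wording, and its title was followed.

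PPARα is a nuclear receptor that binds fatty acids and their derivatives, pairs with the retinoid X receptor and sits on direct repeats in the DNA near genes for the uptake, activation and burning of fatty acids. In rodent liver its synthetic agonists are known to increase the number of peroxisomes and the size of the organ. It is also known to dampen inflammatory gene expression in liver.

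The deposited values are linear intensities. A probe set is a group of short probes for 1 transcript, and the brightest probe set of a gene stands for it. An intensity above 14.2 was taken as above background, which is the 90th percentile of the probe sets of 50 genes that liver does not express. From 50.1% to 50.9% of probe sets were above it on each of the 4 arrays. The ratio of the 3-prime to the 5-prime control probe sets of Gapdh, a sign of RNA integrity, was 0.926 on the wild-type control and 0.948 on the wild-type Wy14643 array. On the PPARα-null control and Wy14643 arrays it was 1.01 and 1.06. The same ratio for beta-actin was 2.51 and 2.47 in the wild-type pair, and 2.61 and 3.29 in the PPARα-null pair. All 13 hepatocyte markers on the array were above background on both arrays. The values go against the labelled sex on all 4 arrays alike. Xist, the RNA of the inactive X chromosome of female cells, stood at 606 on the wild-type control and 328 on the wild-type Wy14643 array, and at 603 and 1029.8 on the PPARα-null ones. The Y-linked genes Eif2s3y (7.61 and 7.45), Uty and Kdm5d were below background on every array.

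Ppara itself stood at 847 on the control and 1250.1 on the Wy14643 array, just under 1.5-fold higher. Of 22626 probe sets, 1938 (8.57%) were at least 1.5-fold higher and 1938 (8.57%) at least 1.5-fold lower on Wy14643 in wild-type liver. In the PPARα-null pair 298 (1.32%) were higher and 615 (2.72%) lower. Over 12393 named genes, with the further condition that the brighter array lay above background, 1128 (9.1%) were higher and 1206 (9.73%) lower in wild-type liver, against 168 (1.36%) and 330 (2.66%) in PPARα-null liver. These gene percentages are the background against which the counts of each list below are read, and "higher" and "lower" below mean at least 1.5-fold with the brighter array above background. At 2-fold, 522 genes (4.21%) were higher and 570 (4.6%) lower. At 8-fold, 78 probe sets were higher and 83 lower in wild-type liver, and in the PPARα-null pair 2 were higher and 0 lower.

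**Figure D1:**
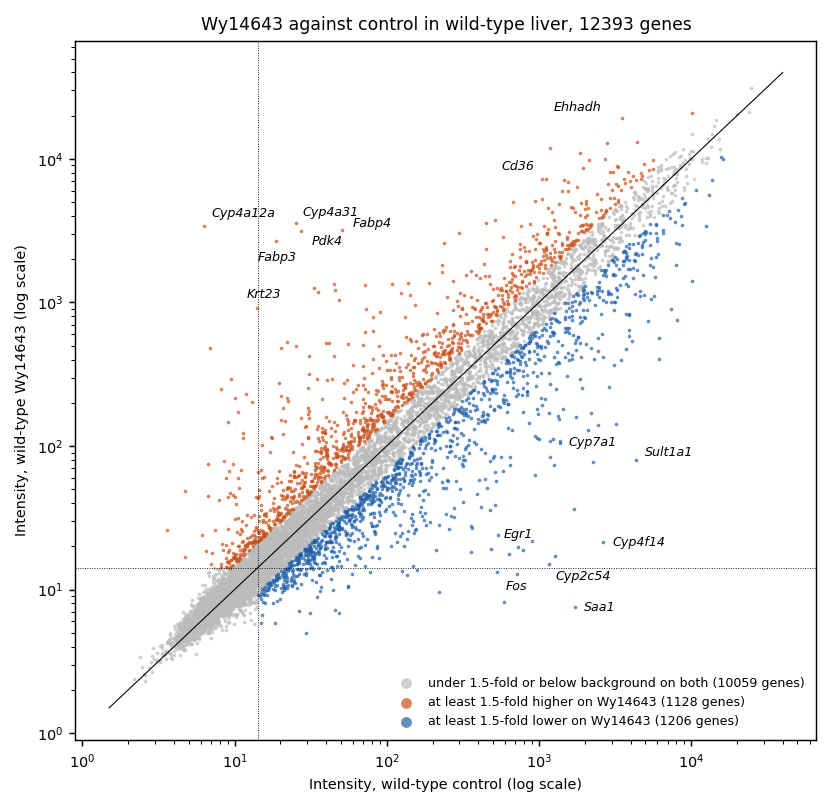
Intensity of each gene on the wild-type control array (horizontal) and on the wild-type Wy14643 array (vertical), both on log scales, with the line of equal intensity drawn solid and the background of 14.2 dotted. The 1128 higher genes (orange) reach up to Cyp4a12a and Fabp3 at upper left, and the 1206 lower genes (blue) down to Saa1 and Cyp4f14 at lower right.

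Of the 10 brightest genes of the control liver, 3 were lower and 7 differed by less than 1.5-fold. Fabp1, the main fatty acid binding protein of liver, gave 24743 on the control and 31270.2 on Wy14643, and albumin (Alb) 14634 and 18534. Ahsg, which encodes the plasma protein fetuin-A, was 1.61-fold lower at 16170.1 and 10018, and the fibrinogen gene Fgb 1.54-fold lower at 15725 and 10236. The glutathione transferase gene Gsta3 was 1.93-fold lower (13782 and 7133), while Clu, Apoa1, Apoa2, Ttr and Hamp differed by less than 1.5-fold.

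Genes were also grouped by the letters that open their symbol. Of 64 genes with Cyp, most of them cytochromes P450, 5 were higher and 30 (46.9%) lower. Of 273 solute carriers (Slc), 21 were higher and 50 (18.3%) lower. Of 176 zinc finger genes of the Zfp series, 5 (2.84%) were higher and 11 (6.25%) lower, and of 118 transmembrane genes of the Tmem series, 10 and 11. None of 32 Hox and none of 31 olfactory receptor genes (Olfr) was above background on either array. Of 68 genes with Krt, mostly keratins and keratin-associated proteins, 5 (7.35%) were higher and 0 lower, beside 9.1% higher of all genes. Only 7 of the 68 were above background on either array.

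The genes with the largest ratios among those above background on both arrays included many of fatty acid handling. Fabp3, a fatty acid binding protein gene best known from heart and muscle, had an intensity of 18.7 on the control and 2679 on Wy14643, 143-fold higher. Cyp4a31, of a family that oxidises fatty acids at their last carbon, gave 25.1 and 3588 (143-fold). Pdk4, a kinase that shuts off pyruvate dehydrogenase, gave 27.4 and 3152 (115-fold). These 3 were close to background in control liver and among the well-expressed genes on Wy14643. The binding protein gene Fabp4 reached 3181 from 50.6 by its brightest probe set (62.9-fold) and its next brightest gave 47.5-fold. Lipoprotein lipase, Lpl, gave 33.4 and 1261 (37.7-fold). Next in order came Anxa2, a membrane-binding annexin (33.4-fold), Cox6b2, a cytochrome oxidase subunit best known from testis (29.5-fold), Crat, for carnitine acetyltransferase (26.5-fold), the imprinted zinc finger gene Peg3 (24.3-fold) and the DNA-dependent protein kinase gene Prkdc (23.8-fold). The list closed with the carnitine transporter gene Slc22a5 (21.5-fold), the elongase gene Elovl3 (19.6-fold), the ion channel gene Asic5 (18.3-fold), the integrin gene Itga6 (14.1-fold) and the glutathione-cycle gene Ggct (13.7-fold).

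Some genes lay below background on the control array, so their fold is given as the smallest that background allows. Cyp4a12a, known as a male-predominant member of the Cyp4a family, was listed at 6.27 on the control and 3423 on Wy14643, at least 241-fold higher. Krt23, a keratin, gave 14.1 and 909.6 (at least 64.1-fold), and the laminin chain gene Lamb3 6.88 and 479.8 (at least 33.8-fold). Cidec, a lipid droplet protein gene, was at least 20.6-fold higher, the surface glycoprotein gene Cd24a at least 17.5-fold, the thioesterase gene Acot2 at least 16.2-fold, the phosphomannomutase gene Pmm1 at least 15.3-fold, the cytokine receptor gene Csf2rb at least 14.2-fold, the monoacylglycerol acyltransferase gene Mogat1 at least 12.2-fold and Tmcc3 at least 10.4-fold. All 10 were below background on both PPARα-null arrays as well. Genes of the Cyp4a, Cyp2c, Acot, Saa, Gst, Ugt and Sult families have near-identical relatives, and probes may bind more than 1 of them, so their single values are uncertain.

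Genes long described as PPARα targets were higher nearly throughout: 24 of 26 on the array were higher and 0 lower, with a median log2 ratio of 1.45, against 0.04 over all genes. This list was drawn from knowledge of the receptor, which in part came from experiments of this kind, so it is not independent evidence. Beside Pdk4 and Lpl stood Acot1, a cytosolic thioesterase gene (1181 and 11997, 10.2-fold), Pex11a, a gene of peroxisome division (679 and 5014, 7.39-fold), and Vnn1, the pantetheinase vanin-1 (1561 and 6895, 4.42-fold). Smaller ratios were seen for Angptl4, an inhibitor of lipoprotein lipase (2.57-fold), the transcription factor gene Creb3l3 (2.05-fold) and Cpt1a (1.59-fold). The hormone gene Fgf21 was listed at 12.5 and 23.4, close to background, and at least 1.65-fold higher. Fabp1 stood under the threshold at a log2 ratio of 0.34.

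The receptor binds a direct repeat of AGGTCA with 1 base between the copies, and the 250 bases before each start site were searched for it on both strands in RefSeq promoter windows of the build GRCm38.p6. A window was found for 9887 of the 12393 genes. The strict form AGGTCANAGGTCA occurred in 0 of 939 higher genes, 1 of 969 lower genes and 4 of 9887 genes in all (0.0405%). The looser form AGGNCANAGGNCA, which holds every strict match, occurred in 1 of 939 higher genes (0.106%), 9 of 969 lower genes (0.929%) and 36 of 9887 in all (0.364%). Over the 27025 genes of the whole promoter table the counts were 11 (0.0407%) and 108 (0.4%). The only higher gene with a match of the looser form was Cyp2d9, a hydroxylase gene (172 and 455, 2.64-fold). Among the canonical targets the only one was Fabp1, which was not called higher and was chosen for display after its match was seen. Both windows are shown, with the match in capitals, because they are the only ones of these groups that carry it. The Cyp2d9 window is chr15:82452127-82452376 on the plus strand with the match on the gene's own strand, its first base 54 bases before the start, and the Fabp1 window is chr6:71199629-71199878 on the plus strand with the match on the opposite strand, its first base 67 bases before the start.
Cyp2d9: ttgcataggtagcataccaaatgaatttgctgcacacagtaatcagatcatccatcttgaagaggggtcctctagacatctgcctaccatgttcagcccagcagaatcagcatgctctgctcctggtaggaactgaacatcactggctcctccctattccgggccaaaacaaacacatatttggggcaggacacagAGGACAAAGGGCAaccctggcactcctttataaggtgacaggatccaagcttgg
Fabp1: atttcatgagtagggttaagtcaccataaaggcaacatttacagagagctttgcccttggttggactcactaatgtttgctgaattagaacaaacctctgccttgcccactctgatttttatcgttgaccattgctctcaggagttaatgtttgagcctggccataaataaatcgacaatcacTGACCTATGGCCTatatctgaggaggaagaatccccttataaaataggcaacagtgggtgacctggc
A match is a description of the letters and not of binding, and a window without one says only that these letters are not in it. Response elements further from the start site lie outside these windows.

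In mitochondrial fatty acid oxidation 18 of 22 genes were higher and 0 lower (median log2 ratio 1.09). The steps of entry were each higher. Cpt1a, the rate-limiting acyltransferase of the outer membrane, gave 1089 and 1729, the carrier gene Slc25a20 1135 and 3056 (2.69-fold), and Cpt2, which returns the acyl group to coenzyme A, 1362 and 4879 (3.58-fold). The isomerase gene Eci1, needed for unsaturated chains, had the largest ratio of the list at 1414 and 5968 (4.22-fold), followed by the reductase gene Decr1 (3.52-fold). The acyl-CoA dehydrogenase genes, which open each round of the spiral, were higher from the short-chain Acads (2.86-fold) through the medium-chain Acadm (2.35-fold) to the long-chain Acadl (2.76-fold) and very-long-chain Acadvl (2.63-fold). For the trifunctional protein, which carries out the later steps, Hadha was 2.64-fold and Hadhb 1.71-fold higher. Electron transfer from these dehydrogenases runs through Etfb (1.69-fold) and Etfdh (1.82-fold), both higher, and Etfa, at a log2 ratio of 0.13. Hadh (0.56), Echs1 (0.19) and Acad9 (-0.44) were the other members under 1.5-fold. Of 10 genes of the carnitine shuttle and carnitine synthesis 5 were higher and 0 lower, with the synthesis genes Bbox1 (0.30), Tmlhe (0.06) and Aldh9a1 (0.09) near 0 on the log2 scale.

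In peroxisomes, 10 of 21 oxidation genes were higher and 1 lower (median 0.58). Ehhadh, the bifunctional enzyme, gave 3522 and 19161 (5.44-fold), Ech1 2143 and 9805 (4.57-fold), and Hsd17b4, the other multifunctional enzyme, 3309.6 and 8839 (2.67-fold). The thiolase gene Acaa1a was 3.46-fold higher and its relative Acaa1b 2.06-fold, reaching 20837. Log2 ratios under the threshold were those of Hacl1 at 0.58, Amacr at 0.53, catalase (Cat) at 0.19 and Phyh at -0.16. Pecr, an enoyl-CoA reductase gene, was lower (1.79-fold). Of 19 peroxins and peroxisomal membrane proteins 11 were higher and 2 lower. Pex11a, the membrane gene Tmem135 (4.08-fold) and the membrane protein import genes Pex16 (3.25-fold), Pex19 (3.22-fold) and Pex3 (2.35-fold) were higher, as were Pex13 (2.05-fold), Pex14 (2.73-fold) and Pex5 (1.75-fold), which take in matrix proteins. Pex2 (1.68-fold) and Mpv17l (1.77-fold) were lower.

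Acyl-CoA thioesterases, which release free fatty acids from coenzyme A, were higher in 9 of 13 cases and lower in 0 (median 1.32). They span cell compartments. Acot1 of the cytosol and Acot2 of mitochondria are given above, the peroxisomal Acot4 gave 238 and 2601 (10.9-fold) and Acot8 69.6 and 502 (7.21-fold). Coenzyme A synthesis itself had Ppcs 7.82-fold, Coasy 1.67-fold and Pank1 1.55-fold higher. Of 10 genes of the Cyp4 family 4 were higher and 4 lower. Higher Cyp4a genes were Cyp4a14 (2717 and 9932, 3.66-fold), Cyp4a31 and Cyp4a12a, the last of which was above background on the Wy14643 array only. Cyp4f14, which acts on leukotrienes, had the smallest ratio of all genes above background on both arrays, at 2652 and 21.3, 125-fold lower. Its relative Cyp4f15 was 1.70-fold higher. Cyp4a14 was also higher in PPARα-null liver, at 25.04 and 213.

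**Figure D2:**
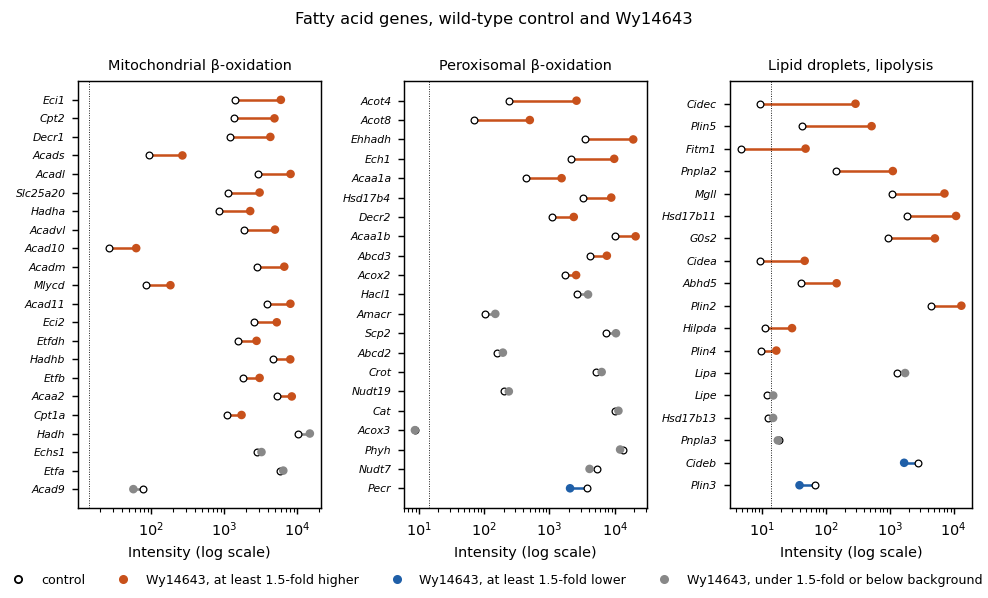
Intensity (log scale) of each gene of mitochondrial β-oxidation, peroxisomal β-oxidation and lipid droplets with lipolysis on the wild-type control (open circle) and Wy14643 array (filled circle), with the background of 14.2 dotted. Of the mitochondrial genes 18 of 22 were higher and none lower, and Cidec crossed background from 9.49 to 293.

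Genes for taking up, storing and releasing fat were in part higher. Cd36, a fatty acid translocase gene, gave 1042 and 7289.97 (6.995-fold), the transport protein gene Slc27a4 30.8 and 315 (10.2-fold), and the very low density lipoprotein receptor gene Vldlr was 2.89-fold higher. Of the 14 acyl-CoA synthetases and Slc27 proteins as a whole 4 were higher and 3 lower (median 0.18). Of 18 genes of lipid droplets and lipolysis 12 were higher and 2 lower (median 1.71). Of the coat protein genes, Plin2 was at 4397 and 13215 (3.01-fold) and Plin5 at 42.01 and 523 (12.4-fold). Of the lipase genes, Pnpla2, which takes the first acyl chain off triglyceride, gave 143 and 1122 (7.83-fold), its activator Abhd5 was 3.54-fold, its inhibitor G0s2 5.41-fold and the monoglyceride lipase gene Mgll 6.49-fold higher. Plin3 (1.75-fold) and Cideb (1.65-fold) were lower. Lipe, the hormone-sensitive lipase gene, stayed near background at 11.9 and 15.2.

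Several of these genes are also markers of fat cells, so the fat cell list was read as a whole. Of 11 adipocyte markers 4 were higher (Fabp4, Lpl, Cidec, Cidea) and 2 lower (Pparg and Car3). The defining markers Adipoq, Lep and Retn were below background on both arrays, and the summed intensity of the list was 11034 on the control and 10973 on the Wy14643 array. That sum is mostly Car3, a carbonic anhydrase gene (10850.00 and 6116), and holds differences in both directions. In RNA of whole liver, fewer cells of a type and less RNA per cell cannot be told apart, and the same holds for more.

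Genes for making lipids went both ways. Of 20 genes of fatty acid and triglyceride synthesis 9 were higher and 4 lower. Esterification genes were among the higher, such as Mogat1, Gpat4 (4.67-fold) and Dgat1 (4.24-fold), and so were the carboxylase gene Acacb (5.25-fold) and Me1, which supplies NADPH (1789.5 and 6353, 3.55-fold). The 4 lower genes were Lpin1, Thrsp, Elovl6 and Acly. Lpin1, a phosphatidate phosphatase and coactivator gene, gave 1191 and 109 (10.97-fold), Thrsp 5191 and 742 (6.996-fold), Elovl6 3.29-fold and Acly 2.73-fold. Fasn stood at a log2 ratio of 0.15 and Scd1 at 0.51. Of 17 elongases and desaturases 8 were higher and 1, Elovl6, lower, with Fads2 2.39-fold and Hsd17b12 3.11-fold higher. In glycerol metabolism Gpd2 (5.32-fold), Aqp3 (3.99-fold) and Gpd1 (2.76-fold) were higher, and in phospholipid metabolism Chkb (39.7 and 522, 13.1-fold), Lpcat3 (4.66-fold), the transfer protein gene Pctp (3.87-fold) and Chpt1 (3.14-fold). Pltp, which moves phospholipid between lipoproteins, was 4.49-fold higher (758 and 3403). Lipg, an endothelial lipase that acts on phospholipids of lipoproteins, was 2.23-fold higher (36.4 and 81.2). Of 16 apolipoprotein genes 0 were higher and 5 lower, led by Apoa4 (8067 and 758, 10.6-fold). Angptl8, an inhibitor of lipoprotein lipase that is known to follow feeding, was 11.2-fold lower.

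Several lists of mitochondrial genes held higher genes and no lower ones. Of 33 subunits of complex I 12 were higher and 0 lower (median 0.43), of 25 genes of complexes III and IV 8 and 0 (0.40), of 16 of the ATP synthase 2 and 0 (0.40) and of 20 of the tricarboxylic acid cycle 5 and 0 (0.36). Examples are Ndufb3 (1003 and 2587, 2.58-fold), cytochrome c (Cycs, 3278 and 8990.3, 2.74-fold) and the synthase of citrate (Cs, 1068 and 2121, 1.99-fold). The medians lie under 1.5-fold, which a minority of the members of each list passed, and the share of the ATP synthase genes is close to the 9.1% of all genes. The largest list was that of the mitochondrial ribosome, with 25 of 67 proteins higher and 0 lower (median 0.42), from Mrpl17 (2.75-fold) to Mrpl23 (log2 ratio -0.39). For comparison, 2 of 42 cytosolic ribosomal proteins were higher and 1 lower (median 0.21). Carriers of the inner membrane split: Slc25a4, the muscle type of the ADP/ATP carrier (72.6 and 906, 12.5-fold), Slc25a30 (7.93-fold), Slc25a42 (4.93-fold) and Slc25a10 (3.48-fold) were higher, and the ornithine carrier gene Slc25a15 was 1.95-fold lower. Within the pyruvate dehydrogenase group Pdk4 alone was higher, Pdk1 was 1.997-fold lower, and the 4 enzyme subunits Pdha1, Pdhb, Dlat and Dld lay between log2 ratios of -0.20 and 0.42.

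Protein turnover and folding genes formed the other large block of higher genes. Of 38 proteasome genes 27 were higher and 0 lower (median 0.90). Psmd4, a ubiquitin receptor of the cap, gave 878 and 3549 (4.04-fold), the deubiquitinase Psmd14 294 and 946 (3.21-fold), and the catalytic subunit gene Psmb5 1057 and 2361 (2.23-fold). Core and cap subunits were both among the higher. The inducible subunits of the immunoproteasome stood on the other side: Psmb8 gave 156 and 26.5 (5.87-fold lower), Psmb10 130.1 and 20.2 (6.43-fold lower), and Psmb9 was at least 2.60-fold lower. Of 28 heat shock proteins and chaperonins 15 were higher and 1 lower (median 0.62), with Hspb1 at 20.2 and 224 (11.1-fold), Hspa1b at 137 and 1364 (9.92-fold) and Hsph1 4.08-fold higher, and Hspb8 1.65-fold lower. Chaperones of the endoplasmic reticulum did not share this direction. Of 32 genes of its stress response 2 were higher and 6 lower, with Hspa5 at a log2 ratio of -0.23, Herpud1 2.04-fold and the transcription factor gene Xbp1 1.88-fold lower. Of 38 translation factors 9 were higher and 0 lower, among them Eif3d (2.19-fold) and Eif3m (2.17-fold), and of 38 genes of the secretory pathway 1 was higher and 5 lower.

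**Figure D3:**
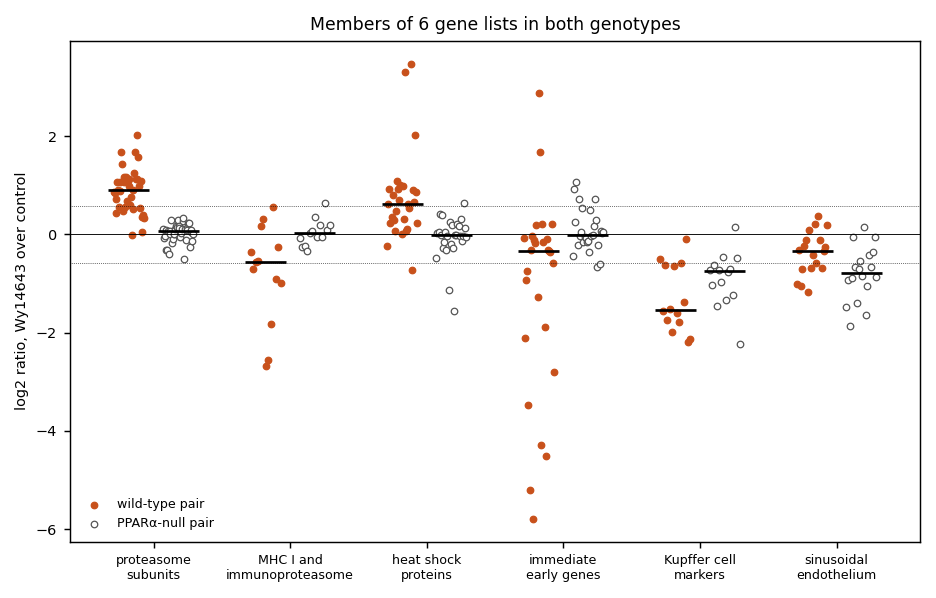
log2 ratio of Wy14643 over control for each member of 6 gene lists in the wild-type pair (filled) and the PPARα-null pair (open), with the list median as a bar and 1.5-fold dotted. Proteasome members lie between -0.01 and 2.01 in wild-type liver, and the Kupffer cell medians are -1.55 in wild-type and -0.74 in PPARα-null liver.

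Of 45 genes of DNA replication and division 16 were higher and 3 lower (median 0.43), and with 32 added to every intensity the median was 0.14. The replication clamp gene Pcna gave 704 and 1309.7 (1.86-fold), the helicase subunit Mcm7 30.3 and 166 (5.48-fold), Fen1 49.3 and 94.3 (1.91-fold) and the cell cycle inhibitor Cdkn1a 19.5 and 67.4 (3.45-fold). Among DNA repair genes 3 of 27 were higher, namely Prkdc, Rad51b (131 and 788, 6.01-fold) and Rad51d (2.96-fold), and 0 lower. Of 29 apoptosis and p53 target genes 8 were higher and 4 lower, with the death receptor gene Fas 3.47-fold, Casp8 2.86-fold and Ccng1 2.43-fold higher and Casp6 1.91-fold and Xiap 1.94-fold lower. Of 22 keratins, annexins and S100 proteins 9 were higher and 0 lower: beside Krt23 and Anxa2 these include the hepatocyte keratin pair Krt8 (1.64-fold) and Krt18 (1.59-fold).

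The genes with the smallest ratios included transporters, detoxifying enzymes, acute phase genes and immediate early genes. After Cyp4f14 came Cyp2c54, a drug- and lipid-oxidising P450 gene, at 1158 on the control and 15.2 on Wy14643 (76.3-fold lower). The organic anion transporter gene Slc22a26 gave 1268 and 17.1 (74.3-fold), and the sulfotransferase gene Sult1a1 4358 and 80.2 (54.3-fold). Each of these was well expressed in control liver and close to background on Wy14643 or, for Sult1a1, some way above it. Rdh16f2, of the retinol dehydrogenase family, was 46.6-fold lower, Nnmt, which methylates nicotinamide, 41.9-fold, the acute phase gene Saa2 41.1-fold, the immediate early gene Egr1 36.8-fold and Cyp3a16 36.01-fold. C9, of the complement system (29.3-fold), the organic anion carrier gene Slco1a4 (25.3-fold), the cytokine receptor gene Lifr (22.5-fold), Frmd4b (22.5-fold), Ier2 (19.6-fold) and the carboxylesterase gene Ces2a (17.6-fold) followed. Of genes above background on the control array alone, Saa1 stood out at 1721 and 7.502, at least 121-fold lower. Fos was at least 50.4-fold lower, Ugt2b37 at least 41.6-fold, the aldehyde oxidase gene Aox3 at least 37.2-fold, Junb at least 15.5-fold, the cystine transporter gene Slc3a1 at least 11.1-fold, Cyp39a1 at least 9.52-fold, Camk1d at least 8.87-fold, the interferon-induced gene Ifi47 at least 5.47-fold and the chloride channel gene Clcn2 at least 4.14-fold.

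Plasma proteins made by the liver were lower as groups. Of 28 complement genes 20 were lower and 0 higher (median -1.02). The lower genes include members of the classical pathway, the lectin pathway and the terminal complex. In the classical pathway the proteases C1s1 (2103 and 128, 16.4-fold) and C1ra (1001 and 111, 8.998-fold) were lower, in the lectin pathway Mbl2 (4.53-fold) and Masp1 (4.59-fold), and in the terminal complex C8b (15.02-fold), C8a (6.41-fold) and C9 (2279.8 and 77.9). The lower genes also include C1qa (2.96-fold), C1qb (1.53-fold) and C1qc (3.36-fold), which macrophages are known to make. Clu and Mbl1 stayed under 1.5-fold. Of 27 acute phase genes 18 were lower and 2 higher (median -0.96). Beside the serum amyloid genes were Orm2 (9.71-fold), the iron-siderophore binder Lcn2 (523 and 56.6, 9.23-fold), Apcs (3.22-fold), Crp (3.16-fold) and the metallothionein genes Mt2 (4.03-fold) and Mt1 (2.47-fold). Stat3, the transcription factor behind much of this response, was 2.81-fold lower, while its feedback inhibitor Socs3 was 1.82-fold higher and haptoglobin (Hp) stood at a log2 ratio of 0.32. Of 33 coagulation genes 14 were lower and 1 higher, led by F11 (1741 and 159, 10.9-fold) and F7 (978 and 114, 8.61-fold). Of 17 serpins 8 were lower and 0 higher, led by Serpina6, the corticosteroid carrier (4.74-fold). The fibrinogen genes Fga and Fgg, among the brightest of these groups, stood at log2 ratios of -0.32 and -0.42.

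**Figure D4:**
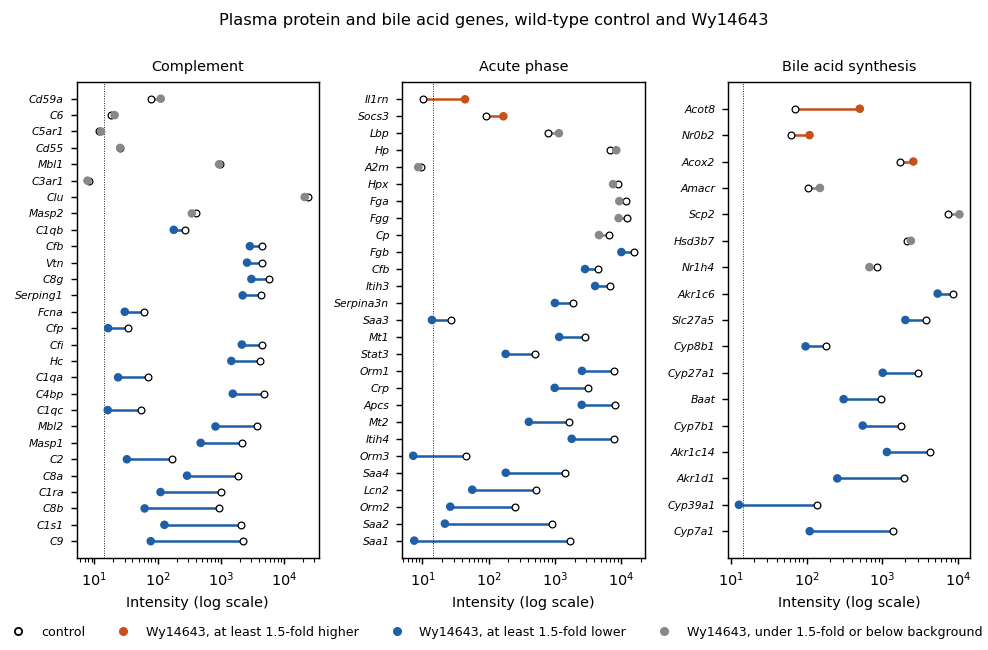
Intensity (log scale) of each complement, acute phase and bile acid synthesis gene on the wild-type control (open circle) and Wy14643 array (filled circle), with the background of 14.2 dotted. Of the complement genes 20 of 28 were lower and none higher, and Saa1 crossed background from 1721 to 7.502.

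Bile acid genes were lower along most of the pathway. Of 17 genes of synthesis and conjugation 10 were lower and 3 higher (median -0.89). Cyp7a1, the rate-limiting enzyme, gave 1368 and 109 (12.5-fold lower). Other enzymes of synthesis, Akr1d1 (7.59-fold), Cyp7b1 (3.21-fold), Cyp27a1 (2.95-fold) and Cyp8b1 (1.86-fold), and the conjugating enzymes Baat (3.14-fold) and Slc27a5 (1.85-fold) were lower. The higher members were the peroxisomal Acot8 and Acox2 (1.501-fold) and the repressor Nr0b2 (1.78-fold). Of 13 transporters of bile salts and organic anions 7 were lower and 3 higher. Genes of uptake from blood were lower, with Slc10a1 at 6526 and 3179.6 (2.05-fold), Slco1b2 at 2.63-fold and Slco1a1 at 10.2-fold, as was the bile salt export pump gene Abcb11 (1658 and 428, 3.87-fold). Among other export genes Abcg2 (447 and 3593, 8.04-fold), Abcb4, a phospholipid flippase (2.18-fold), and Abcc3 (1.68-fold) were higher. In cholesterol synthesis 8 of 17 genes were lower and 1 higher (median -0.58), with Msmo1 at 3093 and 883 (3.502-fold) and Sqle 2.74-fold lower. In the PPARα-null pair 7 of 17 were lower and 0 higher (median -0.53), so this list lay at a like level in both pairs.

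Detoxifying enzymes differed by family, and genes of the Cyp2c family and of sulfation were lower for the most part. Of 9 Cyp3a and Cyp2b genes 2 were lower and 0 higher (median 0.02). Of 21 antioxidant and Nrf2 target enzymes 3 were lower and 4 higher (median 0.25). In the Cyp2c family 9 of 11 genes were lower and 0 higher, with a median of -2.24. Cyp2c68 gave 10156 and 1416 (7.17-fold), Cyp2c70, a hydroxylase of bile acids in mice, 7428 and 897 (8.28-fold), and Cyp2c29 6076 and 2168 (2.80-fold). Outside the family Cyp1a2 was 6.08-fold lower (3935 and 647), whereas Cyp2e1 gave 9865 and 9933 and Cyp3a11 3141 and 4453, under 1.5-fold. Of 12 genes of sulfation 9 were lower and 1 higher (median -1.31), among them Sult3a1, known as female-predominant (12504 and 3404, 3.67-fold). Of 20 glutathione transferases 9 were lower and 4 higher, and here the family split. Gsta2 (2204 and 170.01, 12.96-fold), Gstm2 (11.1-fold) and Gsta4 (7.52-fold) were lower, and Gstt2 (2.88-fold), Gstm4 (2.70-fold) and Gstk1 (2.02-fold), of mitochondria and peroxisomes, were higher. Of 10 genes of glucuronidation 4 were lower and 2 higher, with Ugt2b1 7.78-fold lower. Of 17 aldehyde dehydrogenases 1 was higher and 3 lower. The higher one, Aldh3a2, which oxidises fatty aldehydes, gave 1951 and 8588 (4.40-fold). The soluble epoxide hydrolase gene Ephx2 was 2.66-fold and Ephx1 2.501-fold higher. Of 21 genes of retinoid metabolism 3 were higher, among them Retsat (4.66-fold) and Dhrs4 (4.01-fold), and 7 lower, among them Rdh16f2.

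In the urea cycle 4 of 11 genes were lower and 0 higher: Asl gave 2648 and 420.2 (6.30-fold), Otc 4874 and 1122 (4.34-fold), and Cps1, the entry enzyme, 6519.6 and 3069.8 (2.12-fold). Arg1, the last step, stood at a log2 ratio of 0.04. Of 22 genes of methionine and one-carbon metabolism 10 were lower and 2 higher, with Gamt 5.40-fold, Cbs 3.998-fold and Cth 3.86-fold lower and Csad, which leads to taurine, 4.91-fold higher (583 and 2863). Elsewhere Prodh of proline (1175 and 84.2, 13.95-fold), Hal of histidine (13.2-fold), the aspartate aminotransferase of the cytosol Got1 (11.2-fold), Dbt of the branched chains (8.08-fold) and Haao of tryptophan (3.99-fold) were lower, and Got2, the mitochondrial aspartate aminotransferase, was 1.56-fold higher. In glucose metabolism 8 of 26 genes of glycolysis and gluconeogenesis were lower and 2 higher. Pklr, the liver pyruvate kinase, gave 357 and 27.8 (12.9-fold lower), the glucose-6-phosphate carrier Slc37a4 319 and 40.5 (7.88-fold lower), and Pck1, the first committed step of gluconeogenesis, 8718 and 3489.96 (2.498-fold lower). The uptake and sensing genes Slc2a2 (2.07-fold) and Gckr (3.37-fold) were lower as well. Fbp2, the muscle form of the bisphosphatase (7.55-fold), and Aldoa (2.37-fold) were higher. In glycogen metabolism the targeting subunit gene Ppp1r3c (13.5-fold), Ugp2 (4.16-fold) and the phosphorylase gene Pygl (2.19-fold) were lower. The pentose phosphate pathway differed, with 4 of 7 genes higher, such as Taldo1 (2.09-fold) and Pgd (1.98-fold), and 1 lower. Txnip, a brake on glucose uptake and thioredoxin, was 8.97-fold lower at 458 and 51.01. In the PPARα-null pair, too, its intensity on Wy14643 was under that of the control.

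Of 35 nuclear receptors 1 was higher and 3 lower, and the partners of PPARα were under 1.5-fold, with Rxra at a log2 ratio of -0.35 and Rxrb at 0.12. The liver receptor Nr5a2 was 1.89-fold lower, and Hnf4a stood at -0.54. Of 23 liver-enriched transcription factors 10 were lower and 3 higher: Cebpa gave 1867 and 714 (2.62-fold lower) and Foxa2 2.29-fold lower, while Cebpb was 1.52-fold higher. Clock output factors were lower, namely Dbp (1301 and 374, 3.48-fold), Tef (2.97-fold) and Bhlhe40 (5.92-fold), and of 20 clock genes 8 were lower and 0 higher, with Clock at 0.31 and Nr1d1 at -0.25. The hours at which the livers were taken in this experiment are not given in the sources used here. Of 27 immediate early genes, which answer quickly to stimulation, 12 were lower and 2 higher. Fos gave 715 and 12.9, Egr1 731 and 19.9, and Dusp1, a phosphatase that ends kinase signals, 415 and 37.5 (11.1-fold). On the PPARα-null arrays Fos stood at 571 and 825 and Egr1 at 502 and 821, so the wild-type Wy14643 pool was the one of the 4 with low values. In the growth hormone and IGF axis 9 of 26 genes were lower and 4 higher, with Socs2 (644 and 73.8, 8.73-fold), the receptor gene Ghr (2.67-fold) and Igfbp3 (4.42-fold) lower and Igfbp2 (2.09-fold) higher, and Igf1 at a log2 ratio of -0.47.

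Immune genes and markers of Kupffer cells, sinusoidal endothelial cells, stellate cells and hepatocytes were lower in part. Those of other cell types were not lower as groups. Of 29 interferon-induced genes 11 were lower and 0 higher, among them Ifih1 (3.26-fold) and Iigp1 (3553 and 1488, 2.39-fold). Of 13 genes of MHC class I processing and the immunoproteasome 6 were lower and 0 higher. The lower ones include immunoproteasome genes already given above, such as Psmb10. Of 12 genes of MHC class II 5 were lower and 0 higher, with H2-Aa at 249 and 58.3 (4.28-fold) and Cd74 3.51-fold lower. Of 38 chemokine and cytokine genes 10 were lower and 1 higher, including Cxcl1 (5.35-fold), Il18 (4.78-fold) and Cxcl12 (1546 and 446, 3.46-fold). Beside these stand the Kupffer cell markers, of the resident macrophages: 10 of 14 were lower and 0 higher, and their summed intensity was 1457.6 on the control and 556 on the Wy14643 array. The defining markers Clec4f gave 83.2 and 27.6, Vsig4 147 and 33.4 and Csf1r 84.00 and 24.4, and Marco, Cd68 and Folr2 were below background on both arrays. The same list was lower in 10 of 14 members in PPARα-null liver, with sums of 1844.9 and 971. What part these cells had in the immune lists was not tested. Of 18 sinusoidal endothelial markers 6 were lower and 0 higher in wild-type liver (sums 2769.8 and 1755.3) and 12 and 0 in PPARα-null liver (3068.5 and 1387.8). Of 23 stellate cell and matrix markers 6 were lower and 0 higher (sums 3912.8 and 2639.2), with Col1a1, Des and Lrat below background on both arrays. Neutrophil and lymphocyte markers were mostly dim: 9 of 13 and 14 of 17 were below background on both arrays, and Lcn2, which hepatocytes also make, was the only one called. Of 12 cholangiocyte markers 2 were higher and 1 lower, with Krt7, Krt19 and Epcam below background. Hepatocyte markers themselves were lower in 6 of 13 cases and higher in 0 (sums 115293 and 96136). By zone of the lobule, pericentral markers were lower in 7 of 12 cases and periportal ones in 5 of 8, and 0 of either were higher. These zone lists share genes with the pathway lists above, such as Cyp7a1 and Hal, so they are not separate from them. Of 28 lysosomal genes 12 were lower and 3 higher, such as Ctss (3.53-fold), which macrophages express, and Gm2a (4.16-fold) among the lower and Scarb2 (2.58-fold) among the higher.

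**Figure D5:**
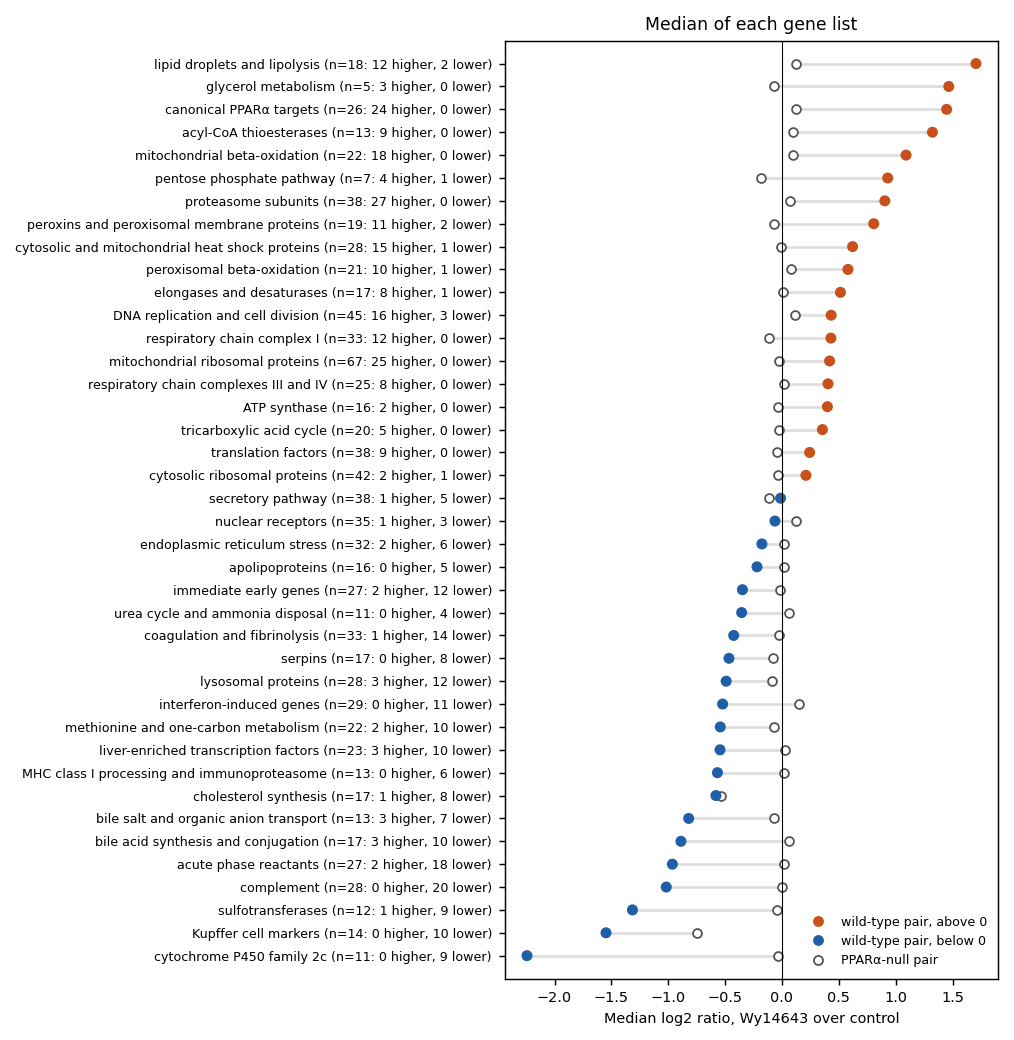
Median log2 ratio of Wy14643 over control for 40 gene lists in the wild-type pair (filled, orange above and blue below 0) and the PPARα-null pair (open), with the number of genes on the array and the numbers higher and lower in wild-type liver. Medians run from -2.24 to 1.71 in wild-type liver, and those of the PPARα-null pair for these 40 lists lie between -0.18 and 0.15 except for cholesterol synthesis (-0.53) and Kupffer cell markers (-0.74). The 40 lists are a selection. Lists left out whose PPARα-null median lies outside that range include sinusoidal endothelial markers (-0.78) and neutrophil markers (0.50).

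The PPARα-null pair, which shares no array with the wild-type pair, gives the same contrast side by side, and no test was made between genotypes. Of 1128 genes higher in wild-type liver, 32 were also higher in PPARα-null liver and 34 were lower there. Of the 1206 lower genes, 131 were also lower and 37 higher. Among genes above background on all 4 arrays, those higher in both pairs with the largest wild-type ratio were Peg3, Ctse, Acot8, Tacc2 and Mgll. Ctse, the protease cathepsin E, gave 298 and 3027 in wild-type and 169 and 271 in PPARα-null liver, and Acot8 gave 27.5 and 59.1 in the latter. The genes lower in both were led by Lifr (3363 and 2106 in PPARα-null liver), Frmd4b, Cyp3a44, Ppp1r3c (369 and 162) and Angptl8. In the PPARα-null pair, beside 1.36% higher and 2.66% lower of all genes, 4 of 26 canonical target genes were higher and 0 lower, and of 21 peroxisomal oxidation genes 4 were higher and 1 lower. There none of 38 proteasome genes, none of 33 complex I genes and none of 67 mitochondrial ribosomal proteins was called in either direction, and so it was for the 27 acute phase genes. Of 28 complement genes 2 were higher and 5 lower there. Of 1335 further probe sets of genes called in the wild-type pair, each above background on at least 1 array, 1175 (88.0%) pointed the same way as the brightest, 698 (52.3%) also at 1.5-fold, and 12 pointed the opposite way at 1.5-fold.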

How the data were processed

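Liver RNA pools of the 4 groups were each measured on 1 Affymetrix mouse array. The deposited values are linear intensities, made by the authors from the scans with GCRMA (version 2.20 per the submitters' processing notes). The labels describe RNA labelling in different words for different arrays. GCRMA adjusts for background and normalises across arrays, so the lowest values are compressed and low genes can show altered ratios. From the deposited intensities the log2 ratio of Wy14643 over control was taken for 22626 probe sets after 64 control probe sets were left out. The platform annotation gave 20380 of them 1 gene symbol, 691 several and 1555 none. Only those with 1 symbol were named, and the probe set with the highest mean over the 4 arrays stood for the gene.

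A call was a ratio of at least 1.5 with the brighter array above background. A gene below background on 1 array has its fold against the background of 14.2. No test was possible with 1 array a group, and precision is limited by the number of arrays. The members of the 84 pathway and 13 marker lists were chosen with earlier results of these data known. Genes were named by rule: the 15 largest and smallest ratios, the 10 largest bounds each way, the 5 genes each way shared with or opposed to the PPARα-null pair, up to 5 called members of a list with rate-limiting steps, the 10 brightest, Ppara and the study's 8 quantitative PCR genes. Further members and the symbol families were named after their values were seen. Python 3.11.15, numpy 2.4.6, pandas 2.3.3 and matplotlib 3.10.9 were used, with cyclic loess from limma 3.58.1 in R 4.3.3 as an alternative. The ratio and call code was tested on simulated data.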

Additional observations from a re-analysis of the deposited data

Results flagged for a closer look

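Several genes passed 1.5-fold one way in wild-type liver and the other way in PPARα-null liver while above background on all 4 arrays, and this difference was not tested, since each value rests on 1 pool. Without the condition on all 4 arrays, 34 of 1128 higher genes were lower in PPARα-null liver, beside 2.66% of all genes. Of 1206 lower genes 37 were higher there, beside 1.36% of all genes. Among those higher in wild-type liver, Hspa1b had log2 ratios of 3.31 in wild-type and -1.56 in PPARα-null liver, Apmap 3.28 and -0.78, Cd36 2.81 and -0.79, Pltp 2.17 and -1.40, and Stk16 1.91 and -0.62. Among those lower in wild-type liver, Nnmt had log2 ratios of -5.39 and 0.76, Egr1 -5.20 and 0.71, C9 -4.87 and 0.91, Nrep -2.97 and 0.80, and Gstm3 -2.25 and 0.93.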

How the results depend on the processing

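With 1 array a group, no spread between mice is known, so no statement reaches beyond these pools. The counts of probe sets kept within 1.5 times of 1938 each way when low values were set to background (1749 higher, 1742 lower), when arrays were centred (1930 and 1946) or loess-normalised (1880 and 1990) and when probe sets ending in _x_at or _s_at were left out (1637 and 1616). They were 1236 and 1129 with 32 added to every intensity, and 860 and 852 at 2-fold. With 32 added, list medians were 1.04 for lipid droplets, 0.97 for glycerol, -1.47 for Cyp2c, 0.53 for pentose phosphate, 0.14 for DNA replication, -0.16 for interferon, -0.37 for pericentral and -0.86 for Kupffer cell markers. With the median of a gene's probe sets in place of the brightest, they were 0.58 for acyl-CoA synthetases, 1.03 for fatty acid binding, 0.83 for fatty acid synthesis, -0.27 for Cyp3a and Cyp2b, -0.52 for other Cyp1 and Cyp2 genes, -0.34 for retinoid metabolism, -0.92 for amino acid carriers, -0.53 for other carriers, -0.94 for immediate early genes, -1.32 for MHC class II, -0.47 for chemokines, 0.60 for keratins and annexins and 1.34 for adipocyte markers. With low values set to background they were -0.15 for flavin monooxygenases and aldo-keto reductases and 0.15 for DNA replication, and without _x_at or _s_at probe sets 0.24 for lipoprotein assembly. The cause was not tested beyond the construction of each setting. Of the called genes among the 449 named by rule, Hamp2 alone changed sign in a setting that gave it a value. It went to 0.28 without _x_at or _s_at probe sets, where some named genes have no value. Further genes named here outside the rule were not looked at in this way. With 32 added 200 of the 449 came nearer to 0 or otherwise moved by more than 0.28, the SD of the PPARα-null pair, and centring and loess moved none by that much. No paired analysis was possible because each group has 1 array.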

Other observations

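Further gene groups of the wild-type pair were described in the same way. Junction genes, which hold hepatocytes to each other, were lower in 8 of 28 cases and higher in 1. The tight junction gene Cldn1 stood at 298 on the control and 82.9 on Wy14643 (3.59-fold lower), the adhesion gene Cdh1 at 259 and 99.6 (2.60-fold lower) and the gap junction gene Gjb2 at 4979.9 and 2733 (1.82-fold lower). Of 43 genes of tubulins and the actin cytoskeleton 5 were higher and 3 lower, with the tubulin gene Tubb4b 2.99-fold higher. Of 33 Rab genes of vesicle traffic 4 were higher and 9 lower, and the extremes were Rab30 at 154 and 964 (6.27-fold higher) and Rab17 at 83.3 and 25.3 (3.30-fold lower).

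Carriers for small molecules were lower more often than higher. Of 23 amino acid and nucleoside carriers 9 were lower and 0 higher, among them the glutamine carrier gene Slc38a3 (3239 and 1099, 2.95-fold) and the nucleoside carrier gene Slc29a1 (626 and 135, 4.65-fold). The monocarboxylate carrier gene Slc16a1, which moves lactate and ketone bodies, was 4.88-fold higher at 1467 and 7163. In iron and heme handling the reductase gene Steap4 was 4.36-fold lower and the biliverdin reductase gene Blvrb 3.16-fold higher, while the coactivator gene Ppargc1a was 2.57-fold lower at 50.4 and 19.6 and the corepressor gene Nrip1 2.69-fold higher at 94.95 and 255. Of 6 erythroid and blood genes the only one called was Car2, a carbonic anhydrase gene that other cells also use, 9.42-fold higher (45.05 and 424), and the globin genes Hbb-b2 and Hba-a1 gave 27.4 and 23.4, and 7.35 and 6.79. Of 14 pancreas and gut genes Fabp2 was 3.05-fold higher and the elastase gene Cela1 5.99-fold lower, and the pancreatic genes Ctrb1, Cpa1 and Ins2 were below background on both arrays.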
